A study of Mus musculus with 16 samples.

Results

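The difference between Kl/Kl and control kidneys that males and females had in common was examined over all 16 libraries of the series, 8 from Kl/Kl mice and 8 from controls. It was estimated in 1 additive model with sex as a block, for the 7593 of 17890 listed nuclear protein-coding genes whose mean was at least 0.5 TPM, a length-scaled expression value. A gene was read as shared where the difference within males and the difference within females had the same sign. Every library came from the kidney of 1 congenic C57Bl/6J mouse, perfused and flash frozen, and held polyadenylated RNA. The Kl/Kl mice, 4 males and 4 females, carried the Kl allele in both copies and had renal disease per the labels. Their controls had healthy renal function and were also 4 of each sex. Male controls 1 and 2 and the 4 female controls carried the allele in 1 copy (+/Kl), while male controls 3 and 4 were wild type (+/+), so the controls were not of 1 genotype. Ages ran from 46 to 59 days. The allele is carried in every cell of the mouse, so effects that begin outside the kidney are part of each difference. In bulk kidney, fewer cells of a type and less RNA per cell cannot be told apart.

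Kl encodes Klotho, a membrane protein of kidney tubules that joins FGF receptors to form the receptor for FGF23, a hormone made by bone. FGF23 lowers phosphate uptake in the proximal tubule, represses Cyp27b1, the enzyme that makes active vitamin D, and induces Cyp24a1, the enzyme that breaks it down. Active vitamin D itself induces Cyp24a1 as well, and mice lacking Klotho are known for high phosphate, high active vitamin D and calcification of soft tissue.

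The deposited values corresponded to between 8209493 and 20109414 recovered reads per library, with males (13029979 or more) deeper than most females (14505336 or fewer). Summed levels of the Y-linked genes Eif2s3y, Ddx3y, Kdm5d and Uty were 4.43 to 5.15 TPM in the 8 libraries labelled male and at most 0.018 TPM in the 8 labelled female. Tubule markers were present throughout, for example Umod of the thick ascending limb at 81.5 to 163 TPM and Slc34a1 of the proximal tubule at 86.6 to 178 TPM. A pair of libraries stood apart from their groups. Read differences between replicates, as chi-square per degree of freedom, were 63.7 to 86.9 for the pairs with male Kl/Kl 3 and 44.9 to 58.2 for the pairs with female control 3, against 4.46 to 30.5 for all other pairs. The share of TPM in nuclear ribosomal RNA was 0.484% to 1.36% in 15 libraries and 7.06% in female control 3. Several results that they moved are given with and without them. No source says whether mice shared a litter, so p-values measure the spread between these animals.

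Kl itself was lower in every Kl/Kl library than in every control. In male controls 1 to 4 it measured 10.3, 8.04, 10.7 and 9.48 TPM, and in male Kl/Kl mice 1.06, 0.737, 0.193 and 1.04 TPM. In female controls it measured 4.00, 6.39, 2.90 and 2.65 TPM, and in female Kl/Kl mice 0.198, 0.0858, 0.0749 and 0.267 TPM. The Kl/Kl mean was thus 7.86% of the control mean in males and 3.93% in females. The transcript was reduced but not missing, with 44 to 905 recovered reads in Kl/Kl libraries over a gene listed at chromosome 5, 150876072 to 150917283 on the plus strand of mm39. The shared difference of Kl was -3.83 (SE 0.27, limma adjusted p 7.01e-07) on the log2 scale of TPM + 0.1, the scale of every log2 difference below unless recovered reads are named. It was -3.68 in males and -3.98 in females.

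**Figure D1:**
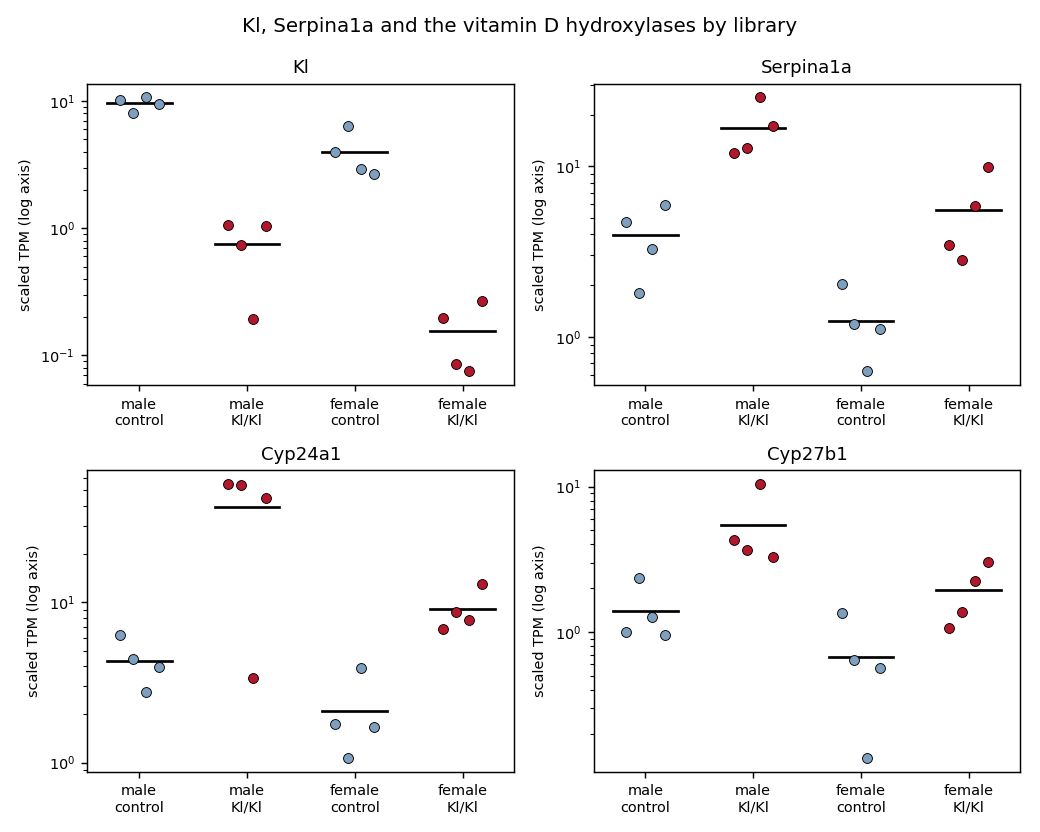
Scaled TPM (log axis) of Kl, Serpina1a, Cyp24a1 and Cyp27b1 in each of the 16 libraries, by group; points are libraries in replicate order from left to right and bars are arithmetic group means. Kl in Kl/Kl mice lies below all controls of either sex, Serpina1a lies above all controls of the same sex, and male Kl/Kl 3 is the lowest Cyp24a1 point and the highest Cyp27b1 point of its group.

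Beside Kl, 1 gene passed in the shared comparison, and it moved the other way. The alpha-1-antitrypsin gene Serpina1a rose and Kl fell, so 1 gene was higher (0.0132% of those tested) and 1 was lower (0.0132%), which makes 0.0263% in either direction at an adjusted p under 0.05. Both also passed in each of the 16 fits that left out 1 library. At an unadjusted p under 0.05 there were 469 genes (6.18%), of which 221 were higher (2.91%) and 248 were lower (3.27%). The median difference of all genes was 0.01 and the standard deviation 0.18. That balance depended on the scaling: with libraries scaled to equal totals of nuclear protein-coding genes 449 were higher and 82 lower, and with the deposited values left unscaled 2506 were higher and 25 lower, as the median of all differences moved to 0.08 and to 0.20. Scale factors were 1.10 to 1.41 in male Kl/Kl libraries and 0.972 to 1.16 in male controls, so small differences are read relative to the median-ratio scaling used here.

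Serpina1a, the gene of the main circulating inhibitor of neutrophil elastase and known chiefly from liver, was higher in Kl/Kl kidneys of both sexes. Male controls measured 4.72, 1.80, 3.25 and 5.96 TPM and male Kl/Kl mice 12, 12.8, 25.3 and 17.2 TPM. Female controls measured 2.04, 1.19, 0.627 and 1.11 TPM and female Kl/Kl mice 3.45, 2.81, 5.85 and 9.94 TPM. Within each sex all 4 Kl/Kl libraries lay above all 4 controls, although the lowest female Kl/Kl values lay within the range of male controls. The shared difference was 2.07 (SE 0.29, limma adjusted p 0.00817), from 2.14 in males and 2.00 in females. It was 1.83 (adjusted p 0.0399) without male Kl/Kl 3 and female control 3. Library names fall into a CFK series (replicates 1 and 2) and a CFdk series (replicates 3 and 4) with every group in both, although both +/+ controls are in the second. Serpina1a differed by 1.5 (adjusted p 0.361) in the first and 2.63 (adjusted p 0.0671) in the second, and Kl by -3.84 (adjusted p 0.00146) and -3.82 (adjusted p 0.0671).

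The mouse genome holds several near-identical copies of this gene, so reads may have been split among them and values of single copies are uncertain. Serpina1d and Serpina1b were named after their values were seen. Serpina1d, the other well-measured copy, measured 7.01, 1.60, 4.43 and 6.67 TPM in male controls, and 9.62, 10.3, 8.50 and 14.5 TPM in male Kl/Kl mice. In females it measured 6.62, 4.48, 2.17 and 1.88 TPM in controls and 7.38, 4.43, 8.48 and 9.78 TPM in Kl/Kl mice. The male groups were apart and the female groups overlapped. Its shared difference of 1.18 (SE 0.30, adjusted p 0.53) did not pass. Serpina1b, whose listed span of chromosome 12, 103694415 to 103796633 (mm39), takes in that of Serpina1d, differed by 1.43 (SE 0.27, limma adjusted p 0.0734) on recovered reads. Serpina1a itself is listed at 103819848 to 103829822 and Serpina1d at 103729853 to 103739852, both on the minus strand.

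Because these copies had differences of the same sign, their promoters are shown, each from 250 bases before to 50 after the start, 5′ to 3′ on the strand of the gene. Sequences are from RefSeq on GRCm38.p6, another build than that of the deposited table. Capitals mark matches to AP-1 (TGANTCA) and C/EBP (TTGCNNAA).
Serpina1a, chr12:103863570-103863869, minus strand: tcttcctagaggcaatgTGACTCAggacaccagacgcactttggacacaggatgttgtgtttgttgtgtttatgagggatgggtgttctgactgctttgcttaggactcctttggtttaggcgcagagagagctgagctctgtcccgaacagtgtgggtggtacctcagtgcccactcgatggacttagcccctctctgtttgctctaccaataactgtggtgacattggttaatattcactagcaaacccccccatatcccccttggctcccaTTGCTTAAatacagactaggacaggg
Serpina1d, chr12:103773584-103773883, minus strand: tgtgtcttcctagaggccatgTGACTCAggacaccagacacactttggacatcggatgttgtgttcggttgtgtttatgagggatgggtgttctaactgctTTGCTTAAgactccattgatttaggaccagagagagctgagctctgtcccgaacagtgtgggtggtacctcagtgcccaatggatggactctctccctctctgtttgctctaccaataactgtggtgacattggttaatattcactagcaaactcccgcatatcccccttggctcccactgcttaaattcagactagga
The windows were 92.6% identical over 296 aligned columns. The AP-1 match, whose pattern is found on both strands at the same place, lay at -233 to -227 in Serpina1a and at -229 to -223 in Serpina1d. The C/EBP match lay after the start in Serpina1a (24 to 31) and before it in Serpina1d (-149 to -142). Searched on both strands, AP-1 letters were found in 7.81% of all 32851 windows of the table, C/EBP letters in 10.8%, the antioxidant response element TGACNNNGC in 12.4% and a vitamin D response element of the DR3 kind in 0.0396%. Of 16 named genes searched, 12 had a window, with 14 windows in all. The only other match among them was an antioxidant response element in 1 of 3 windows of Osbp2. A match of letters is a description of the window and not a site.

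The vitamin D hydroxylases and Serpina1a had the 3 largest positive differences of all tested genes, but neither hydroxylase passed over both sexes on scaled TPM. In the unscaled deposited values both passed (limma adjusted p 0.0212 for Cyp24a1 and 0.0388 for Cyp27b1). Cyp24a1 measured 6.24, 4.42, 2.75 and 3.95 TPM in male controls and 54.7, 54.1, 3.35 and 44.6 TPM in male Kl/Kl mice. It measured 1.73, 1.07, 3.87 and 1.68 TPM in female controls and 6.81, 8.75, 7.76 and 13.1 TPM in female Kl/Kl mice. All Kl/Kl libraries were above the controls of their sex except male Kl/Kl 3, which lay within the male controls. The shared difference was 2.39 (SE 0.47, adjusted p 0.238) with that library and 2.83 (limma adjusted p 1.75e-04) without it. With weights per library Cyp24a1 also passed, at 2.99 (limma adjusted p 1.02e-05). On recovered reads Cyp24a1 passed with all libraries, at 2.42 (SE 0.44, limma adjusted p 0.0492).

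Cyp27b1 measured 0.996, 2.35, 1.27 and 0.949 TPM in male controls and 4.32, 3.66, 10.4 and 3.26 TPM in male Kl/Kl mice. It measured 1.35, 0.64, 0.136 and 0.569 TPM in female controls and 1.07, 1.37, 2.24 and 3.04 TPM in female Kl/Kl mice. Males were apart and females overlapped by 1 library of each genotype. Its shared difference was 1.68 (SE 0.34, adjusted p 0.238) on TPM and 1.77 (SE 0.33, limma adjusted p 0.0554) on recovered reads, where it passed at 1.53 without male Kl/Kl 3 (limma adjusted p 0.0491). Cyp27b1 passed on reads in 2 of the 16 fits that left out 1 library. On TPM its difference was 0.83 (adjusted p 0.626) in the CFK series and 2.54 (adjusted p 0.415) in the CFdk series. Among male Kl/Kl mice, the library of replicate 3 was highest for Cyp27b1 and lowest for Cyp24a1.

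Beside Kl and both hydroxylases, the vitamin D and FGF23 list had no member with an unadjusted p under 0.05. Of its 13 tested members 1 passed and was lower, Kl, and 9 had differences above 0 (53.2% of all genes did), with a list median of 0.05. The FGF receptors differed by -0.03 (Fgfr3), 0.10 (Fgfr1) and 0.15 (Fgfr4). The vitamin D receptor Vdr differed by 0.12 and its partner Rxra by 0.03. Pth1r, the receptor of parathyroid hormone, differed by 0.05. Egr1, an immediate early gene induced by FGF signalling, had a value of 0.62 (unadjusted p 0.0911), and Lrp2, the uptake receptor for the vitamin D binding protein, one of -0.31 (unadjusted p 0.0882).

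Phosphate and calcium transport genes showed little shared difference. Among 5 phosphate transport genes, 0 passed and 0 had an unadjusted p under 0.05. Their median was -0.05 (-0.21 in males, 0.09 in females, and 0.15 over both in the unscaled values). Slc34a1, the main phosphate transporter of the proximal tubule, measured 175, 139, 178 and 154 TPM in male controls and 112, 134, 136 and 125 TPM in male Kl/Kl mice. Female values were 147, 148, 86.6 and 142 TPM in controls and 140, 142, 137 and 153 TPM in Kl/Kl mice. The male groups were apart and the female groups overlapped, and the difference of -0.35 in males stood against 0.16 in females, so the shared difference was -0.09 (SE 0.12) and positive (0.11) in the unscaled deposited values. It was -0.20 without female control 3, and without that library and male Kl/Kl 3, 2 of the 5 phosphate genes had an unadjusted p under 0.05. The scaffold Pdzk1 differed by -0.06 (SE 0.10), and its sign also turned with the scaling (0.14 in the deposited values, 0.02 at equal totals). All 6 tested calcium and magnesium transport genes had shared differences above 0 (median 0.13), but only 3 were above 0 in both sexes. The median was 0.20 in males and 0.06 in females, and 0 reached an unadjusted p under 0.05. Their largest value was 0.39 (SE 0.21) for S100g, the calcium-binding protein calbindin-D9k, a known target of vitamin D. Egf, which promotes magnesium uptake in the distal tubule, differed by 0.19 (SE 0.11).

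The 5 tested mineralisation genes all had differences above 0 in both sexes (30.4% of all genes did), with a median of 0.17 (0.10 without male Kl/Kl 3 and female control 3), and 2 of them had an unadjusted p under 0.05. Spp1, osteopontin, a secreted inhibitor of crystal growth and a marker of tubule injury, measured 83.1, 108, 67.2 and 104 TPM in male controls and 135, 185, 198 and 110 TPM in male Kl/Kl mice. Females measured 284, 238, 226 and 279 TPM in controls and 288, 294, 269 and 346 TPM in Kl/Kl mice. Male groups were apart and female groups overlapped. The shared difference was 0.50 (SE 0.15, adjusted p 0.633). Mgp, matrix Gla protein, another inhibitor of calcification, differed by 0.45 (SE 0.17, adjusted p 0.756).

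**Figure D2:**
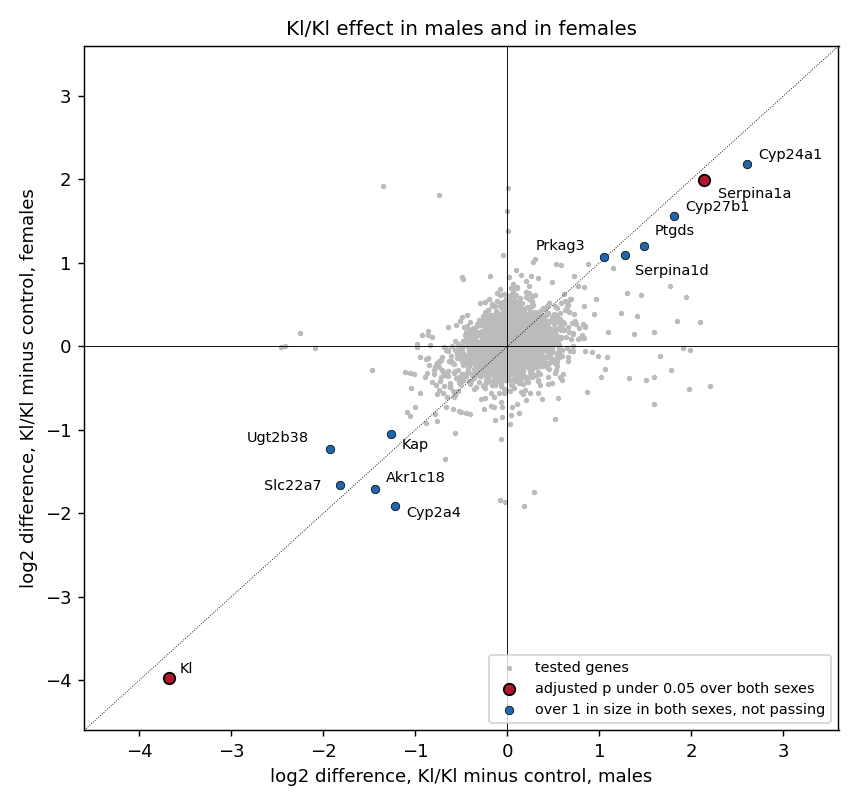
Log2 difference between Kl/Kl and control within males (x axis) against that within females (y axis) for the 7593 tested genes; red points passed over both sexes and blue points exceeded 1 in size in both sexes without passing. The dotted line marks equal differences. Named genes were picked for differences over 1 in size and of the same sign in both sexes, so their place along it follows from that choice. The cloud of genes is centred on 0.

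Same-sign differences in both sexes were found for 58.4% of genes, 30.4% above 0 in both and 28% below 0 in both. In 6 genes (0.079%) both differences exceeded 1: Cyp24a1, Serpina1a, Cyp27b1, Ptgds, Serpina1d and Prkag3. Ptgds, a prostaglandin D synthase, had a shared difference of 1.35 (SE 0.33, adjusted p 0.501), with overlap in males and none in females, where the closest values were 3.24 TPM in a control and 3.28 TPM in a Kl/Kl mouse. Prkag3, a regulatory subunit of the energy sensor AMPK, measured 0.46, 0.35, 0.245 and 0.36 TPM in male controls and 1.02, 0.763, 0.718 and 0.831 TPM in male Kl/Kl mice. Females measured 0.451, 0.644, 0.785 and 2.17 TPM in controls and 1.28, 1.62, 2.05 and 3.06 TPM in Kl/Kl mice. All male Kl/Kl libraries were above the controls, and among females only control 4 reached into the Kl/Kl range. The difference of Prkag3 was 1.06 (SE 0.23, adjusted p 0.405) with that control and 1.25 (limma adjusted p 0.008) without it. That control was singled out for its Prkag3 value, so the p without it is a description. Among the 16 fits that left out 1 library, Prkag3 passed in 1.

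In 6 further genes (0.079%) both differences were below -1: Kap, Cyp2a4, Akr1c18, Ugt2b38, Slc22a7 and Kl. Apart from Kl these are genes of steroid and drug metabolism or transport and an androgen-responsive gene, and none passed. Slc22a7, an organic anion transporter, measured 33.9, 34.4, 18.3 and 15.9 TPM in male controls and 23.1, 20.5, 0.441 and 8.53 TPM in male Kl/Kl mice. Females measured 15.6, 21.9, 30.2 and 5.59 TPM in controls and 9.65, 13.5, 2.64 and 1.55 TPM in Kl/Kl mice. Both sexes overlapped, and the difference was -1.74 (SE 0.67, adjusted p 0.756) with all libraries and -0.97 without male Kl/Kl 3 and female control 3. Akr1c18, a progesterone-inactivating reductase, moved from -1.57 (SE 0.46) to -1.11 and Cyp2a4, a steroid hydroxylase, from -1.57 (SE 0.59) to -0.96 without the same libraries. Ptgds, Prkag3 and Mdk were named after their values were seen. Mdk, the growth factor midkine, differed by -0.67 in males and -1.35 in females (shared difference -1.01, SE 0.23, adjusted p 0.405).

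No gene passed the test of a difference in the Kl/Kl effect between the sexes with all libraries weighted equally and no covariate. The interaction gave 0 passing genes in limma (0%), 166 at an unadjusted p under 0.05 (2.19%), and on recovered reads also 0 (0%), with 340 at an unadjusted p under 0.05 (2.44%). Within males alone 2 genes were higher (0.0263%), the glutathione transferase Mgst1 at 1.06 and the amino acid transporter Slc7a12 at 2.21, and Kl was lower, 3 in all (0.0395%). Within females 0 genes were higher (0%, with 107 at an unadjusted p under 0.05, 1.41%) and Kl was lower. In females the differences of Mgst1 and Slc7a12 were -0.27 and -0.47, so these belonged to no shared pattern. Without male Kl/Kl 3 and female control 3, the interaction called 3 genes, Mgst1, Rarres2 and Ces2e. With weights per library it called 9, Mgst1, Rarres2 and Slc7a12 among them, and in the CFK series alone it called Rarres2 and Slc7a12. On recovered reads with age as a covariate it called Abcb1a, a drug efflux pump named after its values were seen (1.77, limma adjusted p 0.0288).

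Reads recovered from the deposited values were also fitted with limma voom, because the TPM divide by the length of the gene with introns and a gene with long introns can have many reads at a low TPM. Of low values 81.2% were whole within 0.1 reads, so these counts are an inference from the table. Of 13955 genes with at least 10 reads in at least 4 libraries, 5 were higher (0.0358%) and 4 lower (0.0287%), 9 in all (0.0645%). At an unadjusted p under 0.05 there were 1024 (7.34%). The higher genes were Crabp1, Serpina1a, Rassf4, Mab21l3 and Cyp24a1, and the lower ones Kl, Osbp2, Gys2 and Anxa13. Of these, 7 had no overlap between the genotypes in either sex, so 0.0502% of genes both passed and had no overlap. Further genes had no overlap in either sex but did not pass. They were Cd84, Gpnmb, Inhba, Dpy19l3, Sgtb, EPPK1, Clec4a3, Etv1, Slc52a2, Kap, Oxct1, Usp8, Atp6ap1 and Vangl1. The share of all 13955 genes without overlap is not given here. The lack of overlap is read from the same values as the calls and is no added support for them. Crabp1, Kl and Serpina1a passed in all 16 fits that left out 1 library. Osbp2 passed in 11 of them, Gys2 in 8, Rassf4 in 4, Mab21l3 in 3, Anxa13 in 3 and Cyp24a1 in 2.

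Crabp1, a cytosolic binding protein for retinoic acid, was nearly undetected in controls. Male controls gave 2, 1, 1 and 3 recovered reads and male Kl/Kl mice 52, 68, 19 and 26. Female controls gave 0, 3, 0 and 7 reads and female Kl/Kl mice 91, 75, 59 and 82. All 8 Kl/Kl libraries were above all 8 controls, which held for 4 genes (0.0287%) in the higher direction and for Kl alone in the lower (0.00717%). Crabp1 met the filter on reads only through the Kl/Kl libraries, where it is high, so a gene kept this way had to differ and its p is given as a description. A library with 0 reads allows up to 3, for counting error only. The log2 difference on reads was 4.89 (SE 0.52, limma adjusted p 1.43e-04), a size that depends on the small count the fit adds. The mean of Crabp1 lay under the filter on TPM. It passed on TPM too when the filter was lowered to 0.1. Of the other retinoid genes, Rdh10, a retinol dehydrogenase, differed by -0.18 (SE 0.11, and positive at 0.00097 in the unscaled values) and Rxrb, a receptor partner, by 0.11 (SE 0.07), and 0 of the 5 tested on TPM passed or reached an unadjusted p under 0.05.

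**Figure D3:**
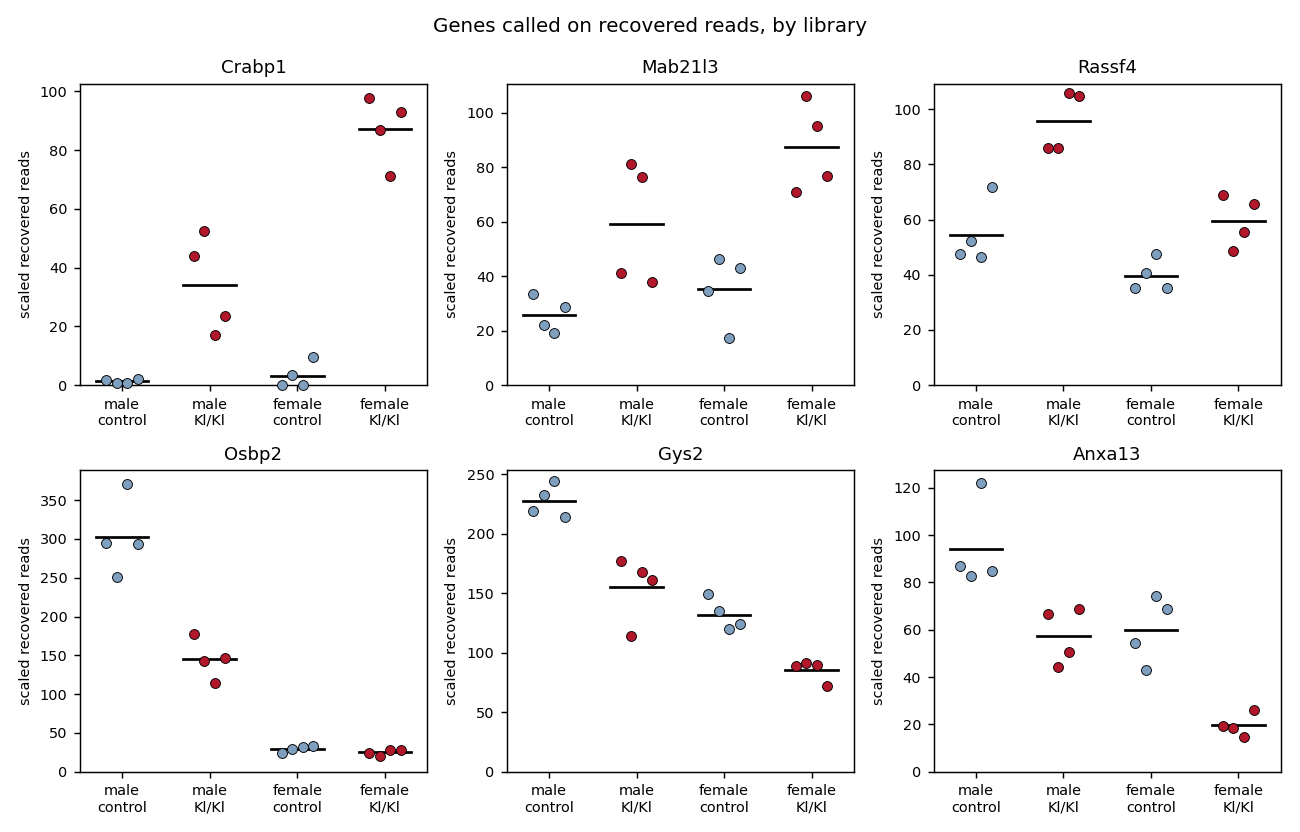
Recovered reads, scaled between libraries by median ratio, for 6 genes called on reads; points are the 4 libraries of each group in replicate order and bars are group means. Crabp1 is near 0 in controls of both sexes, and Osbp2 is separated in males with female values of all genotypes close together.

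The other read-based calls were smaller. Rassf4, a member of the Ras association domain family, gave 47.6, 52.1, 46.5 and 71.9 scaled reads in male controls and 86, 85.9, 106 and 105 in male Kl/Kl mice, with 35.4, 40.5, 47.6 and 35 in female controls and 68.7, 48.5, 55.5 and 65.7 in female Kl/Kl mice. It rose by 0.74 (SE 0.13, limma adjusted p 0.0376). Mab21l3 gave 19 to 33.4 scaled reads in male controls and 38.0 to 81.2 in male Kl/Kl mice, and 17.1 to 46.3 in female controls and 70.9 to 106 in female Kl/Kl mice, without overlap. Its difference was 1.22 (SE 0.22, limma adjusted p 0.0445).

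Gys2, the liver form of glycogen synthase, gave 219, 232, 245 and 214 scaled reads in male controls and 177, 114, 168 and 161 in male Kl/Kl mice. In females it gave 149, 135, 120 and 124 in controls and 89.1, 91.3, 89.3 and 72.5 in Kl/Kl mice. The genotypes were apart in both sexes, and the difference was -0.60 (SE 0.10, limma adjusted p 0.0248). Anxa13, an annexin of epithelial membranes, gave 82.8 to 122 scaled reads in male controls against 44.1 to 68.8 in male Kl/Kl mice, and 42.8 to 74.2 in female controls against 14.5 to 26 in female Kl/Kl mice, a difference of -0.98 (SE 0.18, limma adjusted p 0.0492). Osbp2, an oxysterol-binding protein, passed at -0.91 (SE 0.14, limma adjusted p 0.0195), but mainly through males. Its scaled reads were 251 to 371 in male controls and 115 to 177 in male Kl/Kl mice, while female values of 23.9 to 33.7 and 20.8 to 28.3 overlapped. Its difference was -1.06 in males and -0.20 in females, and the test between the sexes gave -0.86 (SE 0.32, limma adjusted p 1.00).

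On TPM, 2 genes (0.0263%) were higher and 5 (0.0659%) lower without any overlap between genotypes in either sex. These were Serpina1a and Cxcl1, and Kl, Kap, Oxct1, Usp8 and Slc52a2. Cxcl1, a chemokine that attracts neutrophils, measured 0.48, 0.321, 0.243 and 0.59 TPM in male controls and 0.976, 0.715, 2.44 and 0.856 TPM in male Kl/Kl mice. Females measured 0.447, 0.541, 0.46 and 0.536 TPM in controls and 0.704, 0.544, 1.05 and 1.14 TPM in Kl/Kl mice. The closest female values, 0.541 and 0.544 TPM, nearly touched. Control values of Cxcl1 (0.243 to 0.59 TPM) lay mostly under the filter of 0.5 TPM, which its mean met through the Kl/Kl libraries. Its lack of overlap is therefore a description. The difference was 0.97 (SE 0.23, adjusted p 0.475).

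**Figure D4:**
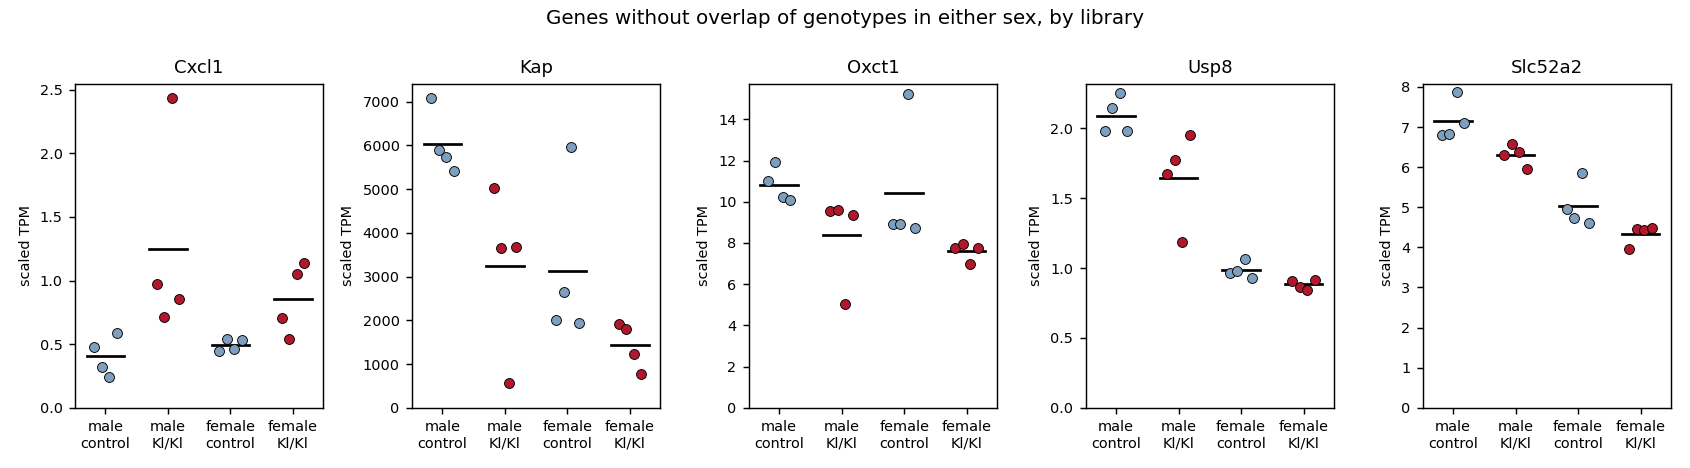
Scaled TPM of Cxcl1, Kap, Oxct1, Usp8 and Slc52a2 in each library by group; points are the 4 libraries of each group in replicate order and bars are group means. Genotypes do not overlap within a sex, and male Kl/Kl 3 is the extreme male Kl/Kl point for Cxcl1, Kap, Oxct1 and Usp8.

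Kap, an androgen-responsive secreted protein of the proximal tubule, measured 7086, 5893, 5737 and 5422 TPM in male controls and 5032, 3654, 569 and 3668 TPM in male Kl/Kl mice. Females measured 1998, 2650, 5955 and 1930 TPM in controls and 1920, 1807, 1229 and 769 TPM in Kl/Kl mice. Its difference was -1.16 (SE 0.38, adjusted p 0.73) with all libraries and -0.63 without male Kl/Kl 3 and female control 3, which hold its extreme values. Oxct1, the enzyme that lets tissue use ketone bodies, measured 10.1 to 11.9 TPM in male controls against 5.03 to 9.61 TPM in male Kl/Kl mice, and 8.71 to 15.2 TPM against 6.97 to 7.95 TPM in females. The difference was -0.41 (SE 0.14, adjusted p 0.73) with all libraries and -0.20 without the same pair. Usp8, a deubiquitinase of endosomes, differed by -0.24 (SE 0.08, adjusted p 0.73). Slc52a2, a riboflavin transporter, differed by -0.19 (SE 0.06, adjusted p 0.73), and by 0.0048 in the unscaled values.

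On recovered reads, 3 myeloid genes joined Crabp1 in having all 8 Kl/Kl libraries above all 8 controls, though none passed with all libraries. They were chosen after their values were seen. Gpnmb, a glycoprotein of lysosome-rich macrophages, gave 0.836, 3.41, 2.82 and 2.88 scaled reads in male controls and 43, 68.9, 692 and 28.1 in male Kl/Kl mice, with 21, 8.1, 5.71 and 1.35 in female controls and 32.2, 40.4, 61.6 and 119 in female Kl/Kl mice. The largest value was again that of male Kl/Kl 3. The difference was 4.02 (SE 0.94, limma adjusted p 0.265). Gpnmb passed without male Kl/Kl 3, at 3.43 (limma adjusted p 0.00798), and without that library and female control 3, at 3.46 (limma adjusted p 0.0141). Like Crabp1, Gpnmb met the filter on reads only through the Kl/Kl libraries, where it is high. Its p-values and its lack of overlap are therefore descriptions. Cd84, a leukocyte receptor of the SLAM family, spanned 4.94 to 17.1 scaled reads in controls and 19.6 to 49.8 in Kl/Kl mice (difference 1.20, SE 0.27, limma adjusted p 0.237). Clec4a3, a lectin receptor of myeloid cells, spanned 3.81 to 8.36 and 8.43 to 16.9 scaled reads (difference 0.73, SE 0.21, limma adjusted p 0.38). Its controls lay between 2 and 11 reads before scaling, under or just over the minimum of the filter on reads. A filter at that level favours a gene that is high in Kl/Kl libraries. The closest scaled values of Clec4a3, 8.36 in a control and 8.43 in a Kl/Kl mouse, nearly touched. Its p and its lack of overlap are therefore descriptions too.

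In the lists that follow, counts stand beside 53.2% of all genes above 0, 30.4% above 0 in both sexes and 6.18% at an unadjusted p under 0.05. The broader macrophage and dendritic cell markers had 10 of 11 tested members above 0 in both sexes, with a median of 0.28 and 3 members at an unadjusted p under 0.05. Lyz2, lysozyme, differed by 0.78 (SE 0.22, adjusted p 0.623), and Cd74, the invariant chain of class II antigen presentation, by 0.43 (SE 0.18, adjusted p 0.791). Csf1r, the receptor that macrophages depend on, differed by -0.09. The summed marker level was 39.6 to 49.0 TPM in female controls and 52.6 to 64.6 TPM in female Kl/Kl mice, and overlapped in males (35.8 to 50.7 and 38.9 to 65.5 TPM). The 1 tested neutrophil marker, S100a8, differed by 0.52 (SE 0.51). Markers of T and NK cells (summed 0.399 to 1.92 TPM over all libraries), B and plasma cells (0.748 to 1.67 TPM) and adrenal cortex (0.527 to 1.02 TPM) were too low to be tested on TPM.

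Tubule injury and repair genes leaned upward in Kl/Kl kidneys. Of 16 tested, 15 had differences above 0, 13 of them in both sexes, and 7 had an unadjusted p under 0.05, but 0 passed. The median was 0.27, from 0.38 in males and 0.14 in females. Lcn2, a secreted siderophore-binding protein and a common marker of tubule injury, measured 0.353, 0.664, 0.447 and 0.341 TPM in male controls and 0.865, 1.48, 3.84 and 0.68 TPM in male Kl/Kl mice. Females measured 1.36, 1.46, 0.685 and 0.662 TPM in controls and 1.65, 2.01, 1.26 and 1.38 TPM in Kl/Kl mice. Males were apart and females overlapped. The difference of Lcn2 was 1.03 (SE 0.29, adjusted p 0.616) and, without male Kl/Kl 3 and female control 3, 0.72. Clu, the secreted chaperone clusterin, differed by 0.41 (SE 0.12, adjusted p 0.616). Vcam1, an adhesion molecule of injured tubule cells, had a value of 0.55, the cell cycle inhibitor Cdkn1a one of 0.44 and the keratin Krt18 one of 0.44. Without the same pair of libraries 14 of 15 tested members were above 0, with a median of 0.14. The summed level was 111 to 157 TPM in male controls, 167 to 269 TPM in male Kl/Kl mice, 299.7 to 351 TPM in female controls and 338 to 423 TPM in female Kl/Kl mice, and Spp1 made up most of it.

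Fibrosis and matrix genes were closer to the median of all genes, with 11 of 12 above 0, a median of 0.10 and 1 at an unadjusted p under 0.05, Col1a1 (0.29, SE 0.13). The matrix glycoprotein gene Thbs1 differed by 0.20 (SE 0.10). All 8 fibroblast and pericyte markers were above 0, 7 of them in both sexes, with a median of 0.10, including Rgs5 of pericytes at 0.26 (SE 0.11). Their summed level overlapped between the genotypes in each sex (5.91 to 8.74 and 6.39 to 10.7 TPM in males, 12.2 to 14.0 and 13.4 to 14.1 TPM in females). Among complement genes 8 of 13 were above 0 (median 0.11, and 0.05 without male Kl/Kl 3 and female control 3), among them C3 at 1.26 (SE 0.41, adjusted p 0.73), of which male Kl/Kl 3 held 6.78 TPM against 0.527 to 1.64 TPM in the other male Kl/Kl mice. C2 differed by -0.27 (SE 0.09), mostly in females (-0.47 against -0.07 in males).

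Plasma protein genes, a list that holds Serpina1a and its copy Serpina1d, had 9 of 11 tested members above 0, 7 of them in both sexes. The median was 0.39 (0.24 without male Kl/Kl 3 and female control 3), from 0.69 in males and 0.09 in females. Of the members 1 passed (Serpina1a) and 7 had an unadjusted p under 0.05. Trf, transferrin, had a value of 0.77, Apoe, apolipoprotein E, one of 0.82, and Serpinf2, the plasmin inhibitor, one of -0.51. Alb, the albumin gene, was too low to be tested. Rarres2, chemerin, differed by 1.99 in males and -0.04 in females. Erythrocyte markers, which also reach the kidney with blood, spanned 11.8 to 124 TPM in male controls and 73.6 to 402 TPM in male Kl/Kl mice, against 5.42 to 149 and 20.2 to 62.0 TPM in females. Hba-a2 differed by 1.91 in males and -0.02 in females (shared 0.95, SE 0.69) and Hbb-bs by 0.75 (SE 0.70). Their part in the plasma protein values was not tested.

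Stress-response lists also leaned upward without a passing member. All 12 p53 and senescence genes had shared differences above 0 (median 0.20), 8 of them in both sexes. Cdkn1a was at 0.44 (SE 0.13, adjusted p 0.669) and the p53 target Trp53inp1 at 0.21 (SE 0.08). Of 13 immediate early genes 11 were above 0 (median 0.16, from 0.28 in males and 0.07 in females). Junb, a subunit of AP-1, was at 0.29 (SE 0.11) and Ier3, a stress-induced survival factor, at -0.47 (SE 0.17). Of 12 circadian clock genes 11 were above 0 with a median of 0.37 (0.52 in males and 0.22 in females), and 4 had an unadjusted p under 0.05. Bhlhe41, a repressor of the clock, measured 0.611, 0.469, 0.817 and 0.774 TPM in male controls and 0.891, 0.881, 1.61 and 0.892 TPM in male Kl/Kl mice. Females measured 0.574, 0.682, 0.844 and 0.873 TPM in controls and 1.19, 0.869, 1.01 and 1.35 TPM in Kl/Kl mice, and only 1 pair of female libraries crossed. Its difference was 0.55 (SE 0.14, adjusted p 0.501). Ciart, another repressor, differed by 0.74 (SE 0.24, adjusted p 0.73). The labels used here give no time of day for dissection, and its part in the clock values was not tested.

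Genes that healthy male mice express more strongly than females in kidney had mostly negative differences. Of 16 tested, 0 passed, 2 had differences above 0 and 10 were below 0 in both sexes (28% of all genes were), with a median of -0.56, and 6 had an unadjusted p under 0.05. The median was -0.88 in males and -0.13 in females, and whether the list differed between the sexes was not tested. Acsm2, a medium-chain acyl-CoA synthetase of the proximal tubule, measured 70.6 to 85.2 TPM in male controls and 22.8 to 56.3 TPM in male Kl/Kl mice, against 18.8 to 24.3 and 15.1 to 19.3 TPM in females (difference -0.59, SE 0.16, adjusted p 0.616). The steroid-induced fatty acid hydroxylase Cyp4a12a differed by -2.46 in males and -0.0026 in females, so its shared value of -1.23 came from males, where control 3 held 9.88 TPM against at most 1.04 TPM in the other controls. Without male Kl/Kl 3 and female control 3 the list median was -0.34. Female-biased genes were split, with 7 of 11 above 0 and a median of 0.13 (0.05 without the same pair). Their median was 0.14 in males and -0.41 in females, with 3 above 0 in both sexes and 4 below 0 in both. Among the members of this list Akr1c18, Cyp2a4 and Slc22a7 had the negative values given above, while the fatty acid hydroxylase Cyp4a14 had 0.88. The Slc22a7 controls given above were not higher in females than in males, and the sex bias of the listed genes was not tested here.

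Organic ion transporters, which carry drugs and metabolites across the proximal tubule, had 2 of 18 differences above 0 and 5 at an unadjusted p under 0.05. Their median was -0.21 (-0.42 in males and -0.11 in females), and -0.12 without male Kl/Kl 3 and female control 3. Slco1a6 measured 1.38 to 1.61 TPM in male controls and 0.578 to 1.11 TPM in male Kl/Kl mice, and 0.857 to 2.25 against 0.732 to 1.03 TPM in females (difference -0.58, SE 0.16, adjusted p 0.616). In the unscaled values 8 of the 18 were above 0 with a median of -0.02. Steroid and carbonyl reduction genes had 4 of 12 above 0 and a median of -0.18 (0.02 in the unscaled values and -0.07 without the same pair), with Hsd17b11 at -0.50 (SE 0.19), from -0.99 in males and -0.0034 in females. Amino acid transporters had a median of -0.01 (0.19 in the unscaled values), with 7 of 15 above 0. Their values with the smallest p were 0.40 (SE 0.15) for Slc38a3, a glutamine transporter, and -0.32 (SE 0.15) for Cltrn, a partner of neutral amino acid transporters. Among 20 cytochrome P450 genes, 11 were above 0 (median 0.06), with the vitamin D hydroxylases at 1 end and Cyp2a4 at the other.

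Cholesterol and fatty acid synthesis genes had 4 of 18 differences above 0 and a median of -0.16, close to equal in males (-0.15) and females (-0.18), and the median was 0.03 in the unscaled values. Idi1, an isoprenoid enzyme, differed by -0.88 (SE 0.25, adjusted p 0.616), from -1.48 in males and -0.28 in females, and Sqle, squalene epoxidase, by -0.41 (SE 0.13, adjusted p 0.73). Fatty acid oxidation genes had 14 of 20 above 0 and a median of 0.04 (0.11 without male Kl/Kl 3 and female control 3). The carnitine carrier Slc25a20 differed by 0.21 (SE 0.08). Gluconeogenesis and ammonia production genes had a median of 0.04, with 10 of 15 above 0. Pck1, which starts gluconeogenesis in the proximal tubule and is known to respond to acidosis, measured 247, 98, 202 and 243 TPM in male controls and 274, 439, 237 and 287 TPM in male Kl/Kl mice. Females measured 139, 93.1, 67.1 and 111 TPM in controls and 197, 134, 113 and 156 TPM in Kl/Kl mice. Both sexes overlapped, and the difference of Pck1 was 0.63 (SE 0.20, adjusted p 0.73). Ggt1, a brush border enzyme of glutathione breakdown, differed by -0.31 (SE 0.09, adjusted p 0.616). Glutathione and NRF2 targets had 14 of 19 above 0, but only 5 above 0 in both sexes and 3 below 0 in both. Their median was 0.11 (0.06 without the same pair), with 0.08 in males and -0.08 in females. Of these genes 0 had an unadjusted p under 0.05, with Gstp1 at 0.34 (SE 0.17).

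**Figure D5:**
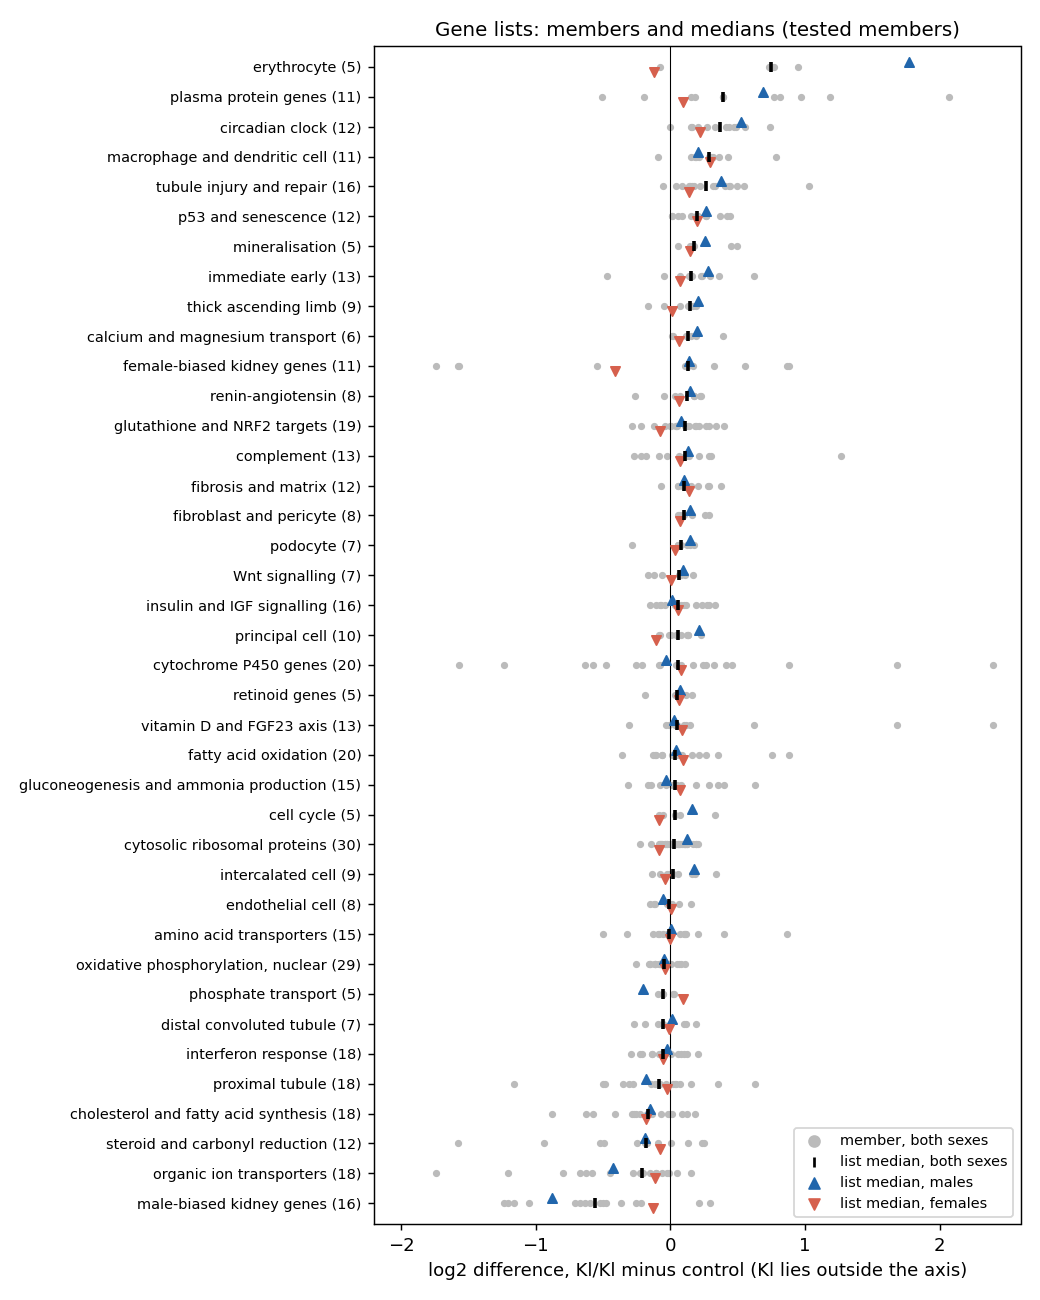
Log2 difference between Kl/Kl and control for the tested members of each list (grey points, both sexes), with the list median over both sexes (black bar), in males (blue) and in females (red); the number of tested members is in parentheses and lists with fewer than 5 are not drawn. Male-biased genes have the lowest median at -0.56 (-0.88 in males and -0.13 in females), and with the unscaled deposited values the negative medians of the synthesis, reduction, interferon, phosphate, amino acid transporter, endothelial, proximal tubule, distal convoluted tubule and oxidative phosphorylation lists turn positive.

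Markers of the kidney's own cell types had medians between -0.09 and 0.14, and 0 passed. Proximal tubule markers had 7 of 18 above 0 and a median of -0.09 (0.12 in the unscaled values). Their summed level, which Kap dominates, ran from 7082 to 8888 TPM in male controls, 1596 to 6565 TPM in male Kl/Kl mice, 3235 to 6787 TPM in female controls and 2364 to 3475 TPM in female Kl/Kl mice. Thick ascending limb markers had a median of 0.14 (0.02 without male Kl/Kl 3 and female control 3), with Umod, uromodulin, at 0.15 (SE 0.10). Distal convoluted tubule markers had a median of -0.05 (0.13 in the unscaled values and 0.05 without the same pair). Their sodium chloride cotransporter Slc12a3 was at -0.19 (SE 0.10, and 0.015 in the unscaled values) and its regulator Wnk4 at 0.19 (SE 0.11). Principal cell markers had a median of 0.06, from 0.22 in males and -0.11 in females, with 2 of 10 above 0 in both sexes. Their sodium channel subunit Scnn1g was at 0.12 (SE 0.09) and the cortisol-inactivating enzyme Hsd11b2 at 0.13 (SE 0.10). Intercalated cell markers had a median of 0.02, from 0.17 in males and -0.04 in females. Of these 9, 1 had an unadjusted p under 0.05, the proton pump subunit Atp6v1b1 (0.34, SE 0.11, adjusted p 0.73). The water channel Aqp6 of the same cells differed by 0.18 (SE 0.13) and by -0.05 in the CFK series.

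Podocyte markers had a median of 0.08, with Podxl, podocalyxin, at 0.12 (SE 0.07) and Clic3 at 0.18 (SE 0.11). Endothelial markers had a median of -0.01 (0.18 in the unscaled values), with the VEGF receptor Kdr at -0.15 (SE 0.12, and 0.030 in the unscaled values) and Ehd3 of glomerular endothelium at 0.15 (SE 0.14, and -0.13 in the CFK series). Renin-angiotensin genes had 6 of 8 above 0 and a median of 0.12, with the renin substrate Agt at 0.22 (SE 0.15).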

How the data were processed

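The authors deposited 1 table of TPM for all libraries. Partek and mm39 are named in the submitters' processing notes; aligner, counting rule and annotation were not given in the sources used here. The deposited TPM were inferred to be reads plus 0.0001 divided by gene length with introns, scaled to a total of 309446. Reads were recovered on that inference, with 81.2% of low values whole within 0.1 reads. Each column matched 1 library. A Kl row listed again was counted once, leaving 30277 genes. Libraries were scaled by median ratio over 5658 nuclear protein-coding genes. Limma 3.58.1 in R 4.3.3 with a mean-variance trend was fitted to log2(TPM + 0.1) with 13 residual degrees of freedom (12 for group means). Adjusted p-values are Benjamini-Hochberg over all genes tested, with a threshold of 0.05. Limma voom was run on recovered reads. A fold on the log2(TPM + 0.1) scale understates changes of low genes, and 3 reads for 1 kb correspond to 0.136 to 0.25 TPM. The fits were tested on simulated data.

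The members and gene lists were chosen with earlier results of these data known. The 45 lists name 672 genes, of which 4 matched under another symbol, 7 had no match and 443 were tested. Named genes are Kl, genes that passed with the same sign in both sexes, passing members or the 2 members of smallest p per list, and genes without overlap, with other names marked. Members named with an unadjusted p or as a plain value illustrate a list. Alternatives covered pseudocount, filter, scaling, moderation, weights, covariates, name series and left-out libraries. Read-based fits with covariates or without single libraries, the noncoding fit and the settings of non-overlap were chosen after seeing the data. Some genes that the rule names are not reported here.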

Additional observations from a re-analysis of the deposited data

Results flagged for a closer look

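In 82 named genes, the 4 libraries of each group were examined for 1 value far from the others, 328 groups in all, and 25 were found. Chance flags about 1 in 20 groups. Male Kl/Kl 3 held 8 of them, with 569 TPM of Kap (others 3654 to 5032), 3.35 TPM of Cyp24a1 (44.6 to 54.7), 5.03 TPM of Oxct1 (9.34 to 9.61), 4.14 TPM of Mdk (6.87 to 7.12), 0.578 TPM of Slco1a6, 0.706 TPM of Rgs5, 1.61 TPM of Bhlhe41 and 3.52 TPM of Clic3. Female control 3 held 6, with 86.6 TPM of Slc34a1 (others 142 to 148), 16.3 TPM of Gstp1, 4.35 TPM of Cd74 (10.8 to 11.9), 15.2 TPM of Oxct1 (8.71 to 8.91), 0.878 TPM of Ifi44 and 0.607 TPM of Lrp6. Female Kl/Kl 3 held 3, at 1.17 TPM of Sqle, 11.3 TPM of Ggt1 and 1.05 TPM of Scnn1g. Female Kl/Kl 1 held 11.2 TPM of Egf and 3.95 TPM of Slc52a2, and female Kl/Kl 2 held 2.48 TPM of Rpl27. Female control 1 held 5.34 TPM of Ifit3 and 1.68 TPM of Hba-a2 (others 32.5 to 53.4), and female control 4 held 3.25 TPM of Cyp2a4 (16.1 to 17.3). Male Kl/Kl 1 held 8.62 TPM of Ier3 and male control 3 held 9.38 TPM of Slc12a3.

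Outside the protein-coding genes, the same fit on 2329 other nuclear genes gave 1 higher and 0 lower genes, with 86 at an unadjusted p under 0.05. The gene was the long noncoding RNA B430119L08Rik, with a difference of 1.75 (SE 0.30, limma adjusted p 0.0476), from 1.83 in males and 1.67 in females. It is listed at chromosome 12, 103862156 to 103865044 on the plus strand (mm39), the chromosome that also holds the Serpina1 copies. Its levels were 0.161 to 0.69 TPM in male controls and 1.27 to 3.08 TPM in male Kl/Kl mice, and 0.0545 to 0.156 TPM in female controls against 0.319 to 1.00 TPM in female Kl/Kl mice, without overlap in either sex. Like those of Cxcl1, its control values lay mostly under the filter on mean TPM, which it met through the Kl/Kl libraries. Its p and its lack of overlap are therefore descriptions. The share of the 2329 genes without overlap is not given here.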

How the results depend on the processing

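Over both sexes, where 1 gene was higher and 1 lower, most settings gave the same counts. There were 2 higher genes with a mean of at least 0.1 TPM, 2 with nearly no filter (and 2 lower), 5 in the unscaled deposited values, 3 with weights per library (and 2 lower), 0 without the sex block, 0 in the CFdk series alone (and 0 lower), 5 by voom on reads (and 4 lower) and 2 without male Kl/Kl 3 and female control 3. Leaving out single libraries gave 1 to 2 higher genes, 2 without male Kl/Kl 3 (Cyp24a1) or without female control 4 (Prkag3), and 1 lower. Within males, where 2 were higher, the counts were 0 at a pseudocount of 1, 6 unscaled and 8 without the pair of libraries, and 0 to 5 with single libraries left out. Lower male genes numbered 4 by voom, 2 without the pair and 1 to 2 with single libraries left out. Within females 1 was higher by voom, 1 without the pair and 0 to 1 with single libraries left out. Weights per library changed the female counts most of the settings run, to 355 higher and 310 lower (7 and 1 in males). The CFK series gave 1 higher and 3 lower in females and 7 and 3 in males, and a mean of at least 0.1 TPM gave 1 higher in females. Between the sexes 3 were called without the pair and 0 to 2 with single libraries left out, 1 without male Kl/Kl 3 and 2 without female control 4. With weights per library 6 were called higher and 3 lower in males than in females. Genes without overlap numbered 46 higher and 1 lower unscaled, 8 and 2 at equal totals, 4 higher with a mean of at least 0.1 TPM, and 11 and 14 without the pair. With single libraries left out they were 2 to 11 higher and 5 to 23 lower, since fewer libraries overlap less often. The cause of the other changes was not tested.

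Replicate numbers were not taken to pair the samples, since only 5 of 8 same-numbered pairs within a sex had correlations of deviations over 0.1 (-0.152 to 0.234). With the replicate block 1 gene was higher and 1 lower over both sexes, 1 was higher within males, and voom called 2 higher and 1 lower, with Mab21l3, Rassf4, Osbp2 and Gys2 at a limma adjusted p of 0.0568, Cyp24a1 at 0.0675 and Anxa13 at 0.0936.

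Of 82 named genes 71 never changed sign. The unscaled deposited values gave 0.11 for Slc34a1, 0.14 for Pdzk1, 0.00097 for Rdh10, 0.0152 for Slc12a3, 0.0303 for Kdr and 0.0048 for Slc52a2. The CFK series gave -0.0899 for Ccnd1, -0.0464 for Ctnnb1, -0.0481 for Aqp6 and -0.13 for Ehd3, and the CFdk series 0.0203 for Slc34a1. Pdzk1 was at 0.016 at equal totals and 0.0064 with weights per library. With single libraries left out Pdzk1 ranged from -0.094 to 0.0176, positive without male Kl/Kl 3, and Cfd from -0.5668 to 0.19, positive without male control 4 (0.19), female control 2 (0.0071) or female Kl/Kl 3 (0.11). Depth limits genes with few reads in controls, such as Crabp1, Gpnmb and Clec4a3.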

Other observations

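Housekeeping and signalling lists lay near the median of all genes. Nuclear genes of oxidative phosphorylation had 5 of 29 differences above 0 and a median of -0.05. They had 18 of 29 above 0 without male Kl/Kl 3 and female control 3, and 28 of 29 in the unscaled values. Ndufa1 of complex I differed by -0.25 (SE 0.11) and Cox4i1 of complex IV by 0.11 (SE 0.07). Cytosolic ribosomal protein genes had a median of 0.03, from 0.12 in males and -0.08 in females, with Rpl4 at 0.21 (SE 0.09) and Rpl27 at -0.23 (SE 0.08). Interferon response genes had 6 of 18 above 0 and a median of -0.06 (0.14 unscaled), with Ifit3 at 0.21 (SE 0.09) and Ifi44 at -0.23 (SE 0.10). Without male Kl/Kl 3 and female control 3, 11 of 18 interferon genes were above 0, with a median of 0.05.

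Insulin and IGF signalling genes had a median of 0.06 and 0 at an unadjusted p under 0.05. Foxo3, a transcription factor restrained by insulin, differed by 0.33 (SE 0.17) and Igfbp4, an IGF-binding protein, by 0.29 (SE 0.15). Wnt signalling genes had a median of 0.07, with the co-receptor Lrp6 at 0.11 (SE 0.08) and Ctnnb1, beta-catenin, at 0.17 (SE 0.15, and -0.05 in the CFK series). Of 5 cell cycle genes 3 were above 0, with Ccnd1, cyclin D1, at 0.33 (SE 0.22, and -0.09 in the CFK series) and Pcna, the replication clamp, at 0.07 (SE 0.10). The adipocyte markers Fabp4 and Cfd differed by -0.28 (SE 0.20) and -0.21 (SE 0.72).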
